A study of Mus musculus with 2 samples.

Results

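Among single cells from mandibular first molars and the tissue around them, 142 of 17780 kept cells held at least 10 UMIs summed over Mpo, Elane, Ctsg and Prtn3. A UMI is a molecular tag that counts 1 captured transcript, and a kept cell had at least 200 genes and at most 20% of its UMIs from mitochondrial genes. The 4 genes are markers of granulocyte-monocyte progenitors and encode the proteins of azurophil granules, so the cells are called azurophil granule cells here. They were chosen on measured values, and their levels of these genes and their contrasts with other cells are therefore descriptions without a test. C57BL/6J mice had received intraperitoneal clodronate liposomes at 40 μg/g on postnatal days (PN) 3.5, 6.5 and 9.5 and again 3 days later (Lipo-Clo), a treatment that kills phagocytes, or the same volume of vehicle liposomes (Lipo-PBS), and 3 days after the last injection the tissue was taken and digested with the enzymes Dispase and Collagenase I. Each condition was 1 library, both labelled batch 1, so treatment and library cannot be told apart, and how many mice each library holds is not given in the sources used here. The deposited counts held 31053404 UMIs in 9362 Lipo-Clo cells and 30537834 UMIs in 9653 Lipo-PBS cells, of which 8886 and 8894 cells were kept. All intervals are exact, at the 95% level, and cover counting error only.

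Neutrophils and monocytes arise in bone marrow from granulocyte-monocyte progenitors. As the neutrophil lineage matures, it makes its granule proteins in waves, beginning with the azurophil granules of the promyelocyte, then the specific granules of the myelocyte, then the gelatinase granules. Transcripts of the azurophil wave are switched off before the cell leaves the marrow, and dividing cells are found only up to the myelocyte. The alveolar bone around a molar has marrow spaces of its own.

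Mpo encodes myeloperoxidase, which makes hypochlorous acid, and Elane (neutrophil elastase), Ctsg (cathepsin G) and Prtn3 (proteinase 3) encode serine proteases. Across the 96 azurophil granule cells without transcripts of other lineages (defined further on), the shares of UMIs held by the 4 genes varied together, with Spearman coefficients from 0.60 (Elane and Ctsg) to 0.92 (Elane and Prtn3). These points share library and depth, and the cells were chosen on the sum of the 4 genes. Their promoters are shown because the 4 genes vary together, from RefSeq on GRCm38.p6, 250 bases before to 50 bases after the start site, on the strand of the gene. Capitals mark AGGAAGT, letters that ETS family factors such as the product of Spi1 can bind, chosen with the 4 sequences in view. The windows are chr11:87793534-87793833 (plus strand) for Mpo, chr10:79886062-79886361 (plus) for Elane, chr10:79879417-79879716 (plus) for Prtn3 and chr14:56102525-56102824 (minus) for Ctsg.
Mpo: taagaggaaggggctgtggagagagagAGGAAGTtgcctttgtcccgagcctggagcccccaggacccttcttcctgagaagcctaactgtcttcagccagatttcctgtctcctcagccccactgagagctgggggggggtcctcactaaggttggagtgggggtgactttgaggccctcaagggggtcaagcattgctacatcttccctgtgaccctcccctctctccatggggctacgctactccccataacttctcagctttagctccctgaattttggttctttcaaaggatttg
Elane: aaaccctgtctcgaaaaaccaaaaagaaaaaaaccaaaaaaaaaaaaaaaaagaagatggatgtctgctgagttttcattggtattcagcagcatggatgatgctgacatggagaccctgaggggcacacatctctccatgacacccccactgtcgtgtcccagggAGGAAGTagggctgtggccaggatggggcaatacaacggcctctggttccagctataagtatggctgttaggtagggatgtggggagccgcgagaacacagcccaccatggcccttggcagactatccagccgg
Prtn3: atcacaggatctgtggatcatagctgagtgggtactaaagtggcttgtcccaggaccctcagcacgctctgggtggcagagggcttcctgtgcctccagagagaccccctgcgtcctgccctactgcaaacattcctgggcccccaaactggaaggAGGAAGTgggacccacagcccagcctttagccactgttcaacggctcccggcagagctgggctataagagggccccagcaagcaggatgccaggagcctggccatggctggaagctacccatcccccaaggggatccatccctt
Ctsg: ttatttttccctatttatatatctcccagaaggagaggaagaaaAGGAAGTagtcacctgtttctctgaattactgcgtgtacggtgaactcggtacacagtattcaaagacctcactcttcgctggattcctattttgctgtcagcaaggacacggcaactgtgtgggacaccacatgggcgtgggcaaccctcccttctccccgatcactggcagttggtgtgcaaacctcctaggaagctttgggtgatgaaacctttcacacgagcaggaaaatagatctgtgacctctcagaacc

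AGGAAGT, searched on both strands, occurred once in each of the 4 windows, beginning 223 bases before the start site in Mpo, 84 in Elane, 94 in Prtn3 and 206 in Ctsg. Of all 32851 RefSeq promoter windows of the same length, 9.35% held it. CAACGG, letters that MYB can bind, began 51 bases before the start of Elane and 56 bases before that of Prtn3, and 5.12% of all windows held it. TTGCNNAA, letters that C/EBP factors can bind, was in none of the 4 windows. It was in those of the specific granule genes Ngp, Ltf and Lcn2 but not in that of Camp, in those of Ms4a3 and Cst7, which are described below with the azurophil genes, and in 10.8% of all windows. TGTGGT, letters that RUNX factors can bind, was in the window of Ctsg and not in those of Mpo, Elane and Prtn3, and 16.8% of all windows held it. It was also in those of Nkg7, Cst7 and Ltf. AGGAAGT was in the window of Cst7 but not in those of Ms4a3, Nkg7, Camp, Ngp, Ltf or Lcn2, and CAACGG was in none of these. None of these matches overlapped another. A match describes the letters and is not evidence of binding.

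Azurophil granule cells were 1.29% of kept Lipo-Clo cells (115 of 8886, 1.07% to 1.55%) and 0.304% of kept Lipo-PBS cells (27 of 8894, 0.2002% to 0.441%). The share was 4.26 times higher in Lipo-Clo, a log2 ratio of 2.09 (1.48 to 2.75). The reference groups that follow leave out the azurophil granule cells, and each leaves out those named before it. Later stages of the neutrophil lineage also held larger shares in the Lipo-Clo library. Specific-granule neutrophils (at least 20 UMIs and 2% of UMIs over Camp, Ngp, Ltf and Lcn2) numbered 337 and 121, a log2 ratio of 1.48, and neutrophils past that stage (the same limits over S100a8, S100a9, Retnlg, Mmp8, Mmp9, Csf3r and Cxcr2) numbered 300 and 160, a log2 ratio of 0.91. Monocytes (at least 5 UMIs over Ly6c2, Ccr2, F13a1, Ms4a6c and Ms4a4c and fewer than 3 over the macrophage genes C1qa, C1qb and C1qc) numbered 102 and 44, a log2 ratio of 1.21 (0.69 to 1.76). Dendritic cell markers took 1.15% of the UMIs of the latter and monocyte genes 0.705%, so the name stands for its limits and dendritic cells may be among them. Among these 4 kinds of myeloid cell together, azurophil granule cells made up 13.5% in Lipo-Clo and 7.67% in Lipo-PBS. With 1 library for each condition none of these differences has a replicate check.

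The azurophil granule cells of the Lipo-PBS library differed in content from those of Lipo-Clo. A cell was set apart where it held at least 0.5% of UMIs from Col1a1, Col1a2 and Col3a1, 2% from Hba-a1, Hba-a2, Hbb-bs and Hbb-bt or 0.2% from the epithelial genes Krt14, Krt5, Amelx, Ambn and Odam, limits chosen after the values were seen. By these limits 27 of 115 Lipo-Clo cells (23.5%, 16.1% to 32.3%) and 19 of 27 Lipo-PBS cells (70.4%, 49.8% to 86.2%) carried transcripts of other lineages. The same held for 24.6% and 51.2% of specific-granule neutrophils and for 33.3% and 38.6% of monocytes. Without these cells 88 cells remained in Lipo-Clo (0.990%) and 8 in the Lipo-PBS library (0.0899%), and the log2 ratio of the shares was 3.46 (2.42 to 4.72).

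Cells in 2 sets accounted for 13 of the 27 Lipo-PBS cells. In 6 cells, collagen transcripts were 5.64% to 7.03% of UMIs and globin transcripts 7.85% to 11.3%, with 31 to 65 UMIs over the 4 azurophil genes and 76 to 132 over S100a8 and S100a9. In 7 further cells, epithelial transcripts were 0.408% to 0.554% of UMIs, with 13 to 73 azurophil UMIs and 0 to 3 UMIs over S100a8 and S100a9. Of these 7, 1 cell stood apart, with 5058 UMIs and 2.57% collagen transcripts, against 11678 to 17682 UMIs and 0.444% to 0.591% in the others. Ptprc, which encodes the leukocyte surface protein CD45, had 0 UMIs in all 13 cells, which allows a share of up to 23.1% by a floor of 3 cells (24.7% by the exact upper limit) of such cells to hold a UMI. It had a UMI in 35 of the 88 Lipo-Clo cells without transcripts of other lineages (39.8%) at a median of 10924.5 UMIs per cell, against 6952 in the 13 cells. Spi1, the transcription factor of the myeloid lineage, had at most 1 UMI in each of the 13. Other leukocyte genes were seen, with Tyrobp at 1 to 5 UMIs per cell in the set of 6 and 0 to 5 in the set of 7. Plac8 was at 0 to 6 and 0 to 8 UMIs. Their part in the Lipo-PBS share was not tested, and the share without them was 0.157% (14 cells), a log2 ratio of 3.04 (2.23 to 3.96).

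**Figure D1:**
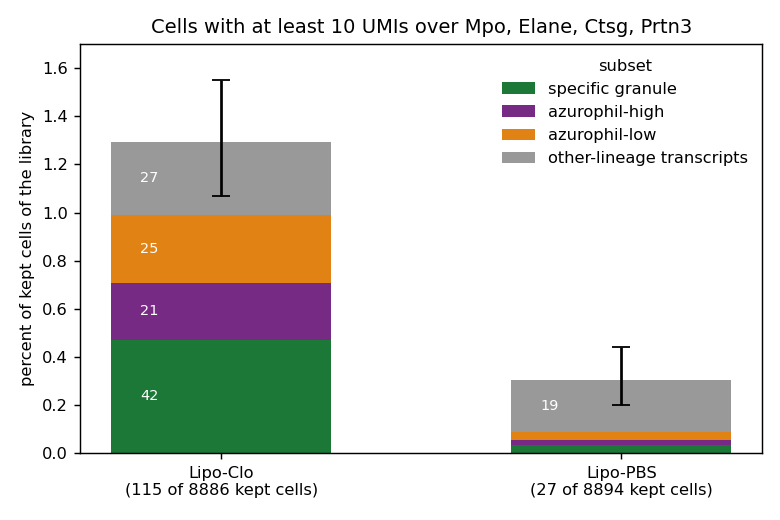
Stacked bars give azurophil granule cells as percent of the kept cells of each library, split by what else the cells held, with counts in white where a segment is tall enough. Error bars are exact 95% intervals of the whole share (1.07% to 1.55% in Lipo-Clo and 0.2002% to 0.441% in Lipo-PBS), and 19 of the 27 Lipo-PBS cells carried transcripts of other lineages against 27 of the 115 Lipo-Clo cells.

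The azurophil granule cells were deep. Their median was 11012 UMIs per cell in Lipo-Clo and 6952 in Lipo-PBS, against 2672.5 and 2754.5 for all kept cells. The range was wide, from 528 to 28758. Mitochondrial transcripts were a median 0.158% of UMIs in Lipo-Clo and 1.52% in Lipo-PBS, and all kept cells differed in the same way, with 0.289% and 1.67%. The libraries shared 30 cell barcodes, of which 2 belonged to azurophil granule cells. In each library 1 pair of these cells had barcodes that differed by 1 base (25424 and 585 UMIs in Lipo-Clo, 14832 and 528 in Lipo-PBS). Both cells of each pair lacked other-lineage transcripts and are counted in all shares. With each pair counted once there were 140 cells, 1.28% and 0.292% of kept cells, a log2 ratio of 2.13. Scrublet, which scores cells for likeness to simulated doublets, was used to mark the 632 and 633 highest-scoring cells, 7.11% and 7.12% of the kept cells. Among the marked cells were 5 of the 115 Lipo-Clo cells (4.35%) and 7 of the 27 Lipo-PBS cells (25.9%).

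The 4 genes together took 1.65% of the UMIs of the azurophil granule cells, 23573 UMIs in Lipo-Clo and 3218 in Lipo-PBS. Single cells held 10 to 1098 of these UMIs, with a median of 84 in Lipo-Clo and 57 in Lipo-PBS. Prtn3 was present in all 142 cells, with 11432 and 1334 UMIs, and Elane in 90.1% of them, with 8147 and 1409 UMIs. Mpo was present in 75.4% (2002 and 256 UMIs) and Ctsg in 74.6% (1992 and 219 UMIs). In mesenchymal cells, which should lack these genes, a UMI was found in 1.08% of cells for Mpo, 2.13% for Elane, 0.406% for Ctsg and 2.57% for Prtn3 at a median of 3250 UMIs per cell, against 10801.5 in the azurophil granule cells. By the choice of cells, 95.1% of all UMIs of the 4 genes in kept cells lay in the 142. At least 1 was held by 8.94% of the other Lipo-Clo cells and 2.65% of the other Lipo-PBS cells. On either side of the limit, 4 cells held 10 of these UMIs and 4 held 9. The 15 cells with 10 to 14 of these UMIs held at least 10 specific granule UMIs in 46.7% of cases, and the 31 cells with 6 to 9 did so in 41.9%.

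The label of granulocyte-monocyte progenitors was only partly borne out by other genes. Cd34, a surface marker of progenitors, had a UMI in 25 of 142 cells (17.6%), but among the 96 cells without other lineages in 8.33%, below the 20.9% of mesenchymal cells that held it. Kit, the receptor for stem cell factor, was found in 10.6% of the azurophil granule cells and in 11.8% of mesenchymal cells. Flt3, a receptor of multipotent progenitors, was found in 3.52% against 0.127%, Cd27 in 2.82% against the same 0.127%, and Hoxa9, a homeobox gene of early progenitors, in 7.75% against 0.0348%. Of 16 genes listed for stem and multipotent progenitors, 15 had a UMI in these cells, and together they took 0.0178% of UMIs. Cd48 held more UMIs than any other of the list, 127 in Lipo-Clo and 14 in Lipo-PBS. It was found in 41.5% of the cells against 1.32% of mesenchymal cells, but lay below monocytes (log2 ratio -1.10). At least 1 UMI of Cd34, Kit or Flt3 was seen in 26.8% of the cells. With every cell thinned to 2000 UMIs the share was 4.41%, against 9.43% of specific-granule neutrophils and 21.5% of mesenchymal cells. By these 3 genes together, the azurophil granule cells stood above neither at this depth. Mesenchymal cells are a weak yardstick here, since 20.9% of them held Cd34.

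By what else they held, the 142 cells fell into 4 subsets with median depths between 9961.5 and 14186 UMIs. Cells with transcripts of other lineages formed the first subset (46). Of the others, 45 had at least 10 UMIs over the specific granule genes Camp, Ngp, Ltf and Lcn2 (42 in Lipo-Clo and 3 in Lipo-PBS). Another 23 cells were azurophil-high, with at least 1% of their UMIs over Mpo, Elane, Ctsg and Prtn3 and fewer than 10 specific granule UMIs (21 and 2). The 2 in Lipo-PBS were the pair whose barcodes differed by 1 base. The remaining 28 were azurophil-low, under 1% and under 10 UMIs (25 and 3). Counting those with other-lineage transcripts too, 60 of 142 cells (42.3%, 34.0% to 50.8%) held at least 10 specific granule UMIs, and 0.313% of the shallower mesenchymal cells did. The cells were divided on these values, so the subsets differ in them by construction.

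**Figure D2:**
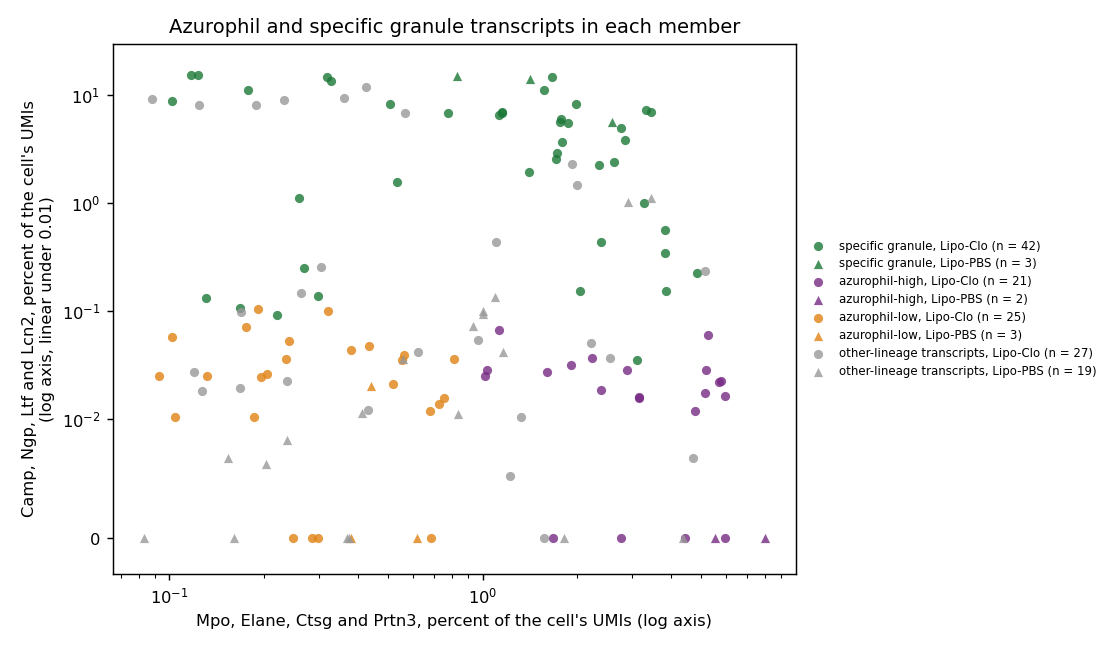
Each point is 1 of the 142 cells, a circle for Lipo-Clo and a triangle for Lipo-PBS, with the percent of its UMIs over the 4 azurophil genes on a log x axis and over the 4 specific granule genes on a log y axis that is linear under 0.01. Specific granule cells spread over azurophil shares from 0.102% to 4.86%, while cells above 4% held at most 0.235% of UMIs from specific granule genes, and across the 96 cells without other lineages the Spearman coefficient was -0.09.

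The 45 specific granule cells were chosen to hold at least 10 UMIs of both gene sets, and they held from 10 to 1098 azurophil UMIs and from 10 to 1857 specific granule UMIs. Camp, the cathelicidin antimicrobial peptide, was at 31029.9 CPM (counts per 1000000 UMIs, summed over the cells), against 54810.0 CPM in specific-granule neutrophils and 109.7 CPM in azurophil-high cells. Ltf (lactoferrin) was far below the neutrophil level, at 383 against 2751 CPM. Cebpe, the transcription factor required for specific granules, was at 247 CPM and in 75.6% of these cells, against 94.7 CPM in specific-granule neutrophils and 3.2 CPM in azurophil-low cells. Fcnb (ficolin B) was at 231 CPM against 59.8 CPM in the neutrophils, and Chil3 (a chitinase-like lectin) at 1042 against 1184 CPM. Mature markers were low, with Ly6g at 10.1 CPM, Cxcr2 at 14.2 CPM and Retnlg at 411 CPM, against 240.1, 36.6 and 6197 CPM in specific-granule neutrophils.

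The 23 azurophil-high cells held the highest level of several genes that the rule did not use. Ms4a3, a marker of granulocyte-monocyte progenitors, was at 1626 CPM against 839 CPM in specific granule cells and 125 CPM in azurophil-low cells. Nkg7 was at 836, 298 and 32.0 CPM in the same order, Srgn (serglycin, which packs granule proteases) at 2909.8, 1056 and 361 CPM, and Cst7 (cystatin F, an inhibitor of granule proteases) at 187, 66.9 and 16.0 CPM. Myb, a transcription factor of immature blood cells, was found in 60.9% of azurophil-high cells at 109.7 CPM, against 17.8% of specific granule cells at 22.3 CPM. Gfi1, a repressor that directs granulocyte fate, was found in 26.1% against 6.67%. Alas1, the first enzyme of haem synthesis, was at 194 CPM against 19.2 CPM in azurophil-low cells, and myeloperoxidase is a haem enzyme. Calr, the chaperone calreticulin, was at 600.03 CPM against 180.4 CPM in specific granule cells.

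Several monocyte genes were at higher levels in the 28 azurophil-low cells than in the other subsets. Presence of the 5 genes that defined monocytes, Ly6c2 among them, did not set these cells apart, since 4 of 28 held no UMI of them against 1 of 23 azurophil-high cells. Ccr2, the chemokine receptor of inflammatory monocytes, was found in 64.3% of them at 137 CPM, against 13.04% of azurophil-high cells at 19.4 CPM, and in 76.7% of monocytes at 399 CPM. Irf8, the transcription factor of the monocyte and dendritic cell branch, was found in 53.6% at 99.1 CPM, against 59.7 CPM in monocytes and 16.2 CPM in specific granule cells. With cells thinned to 2000 UMIs it was found in 2 of 28 azurophil-low cells, 3 of 20 azurophil-high cells and 12 of 135 monocytes, too few to order them. Ms4a6c was at 480 CPM, F13a1 (a coagulation factor subunit made by monocytes) at 205 CPM, Ly86 at 214 CPM and Csf1r, the receptor for macrophage colony-stimulating factor, at 38.4 CPM. In azurophil-high cells these were at 93.6, 87.1, 48.4 and 16.1 CPM. Cebpe and Prss57 were nearly missing from azurophil-low cells, in 3.57% and 7.14% of them. Antigen presentation genes are described below.

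In each library 1 azurophil-low cell was led by basophil genes. The Lipo-Clo cell held 225 UMIs over the basophil and mast cell list, among them 126 of Prss34, 69 of Mcpt8 and 21 of Cpa3, and the Lipo-PBS cell held 96, among them 63, 24 and 3. Both had Ctsg (23 and 9 UMIs) and no UMI of Elane or Ms4a3. Prss34 was seen in no other azurophil granule cell.

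**Figure D3:**
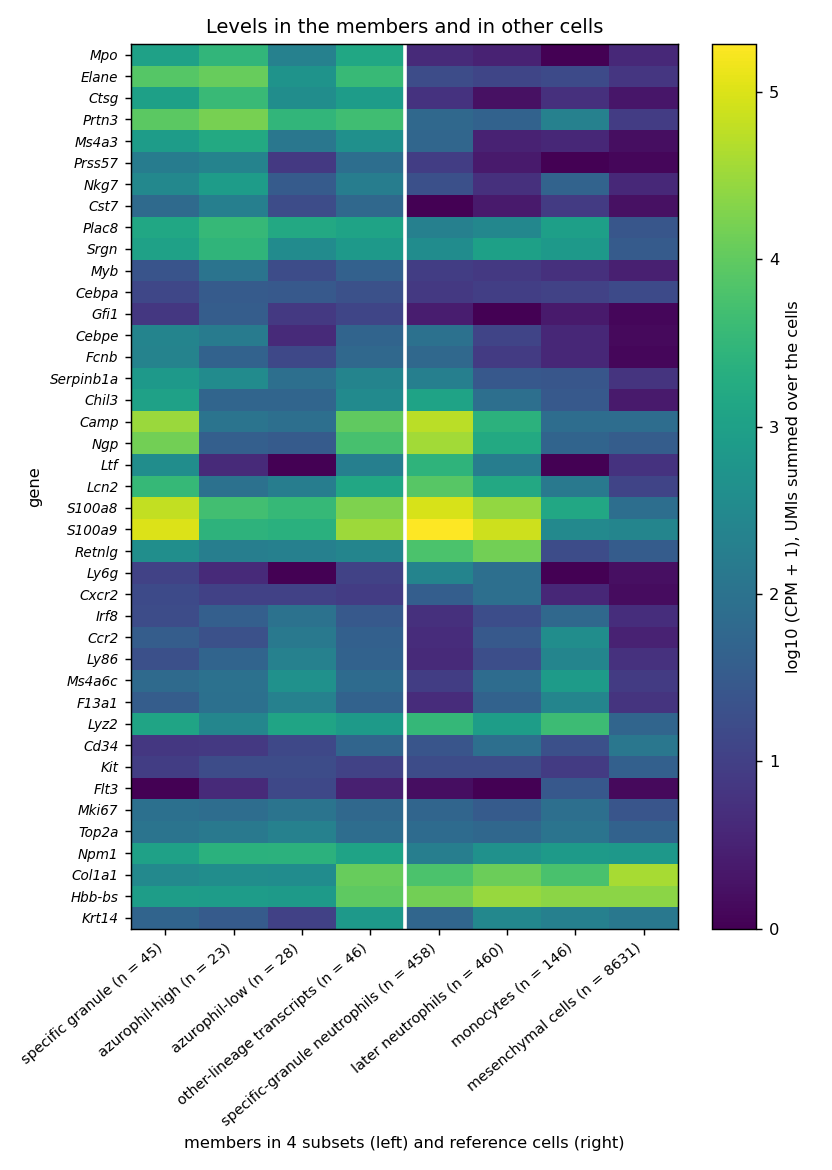
Colour gives the level of each gene (rows) as log10 of CPM plus 1, from UMIs summed over the cells of each column, with the 4 subsets left of the white line and 4 kinds of reference cell right of it. Among the 4 subsets, the azurophil-high column is brightest in Ms4a3 (1626 CPM), the specific granule column in Camp (31029.9 CPM) and the azurophil-low column in Irf8 (99.1 CPM).

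Over all other kept cells, and among genes found in at least 25% of the azurophil granule cells, the genes with the highest ratios after the 4 of the rule were Ms4a3 (1094 UMIs in Lipo-Clo cells and 91 in Lipo-PBS cells, log2 ratio 8.21), Prss57 (176 and 21 UMIs, 7.79) and Cst7 (112 and 14 UMIs, 5.83). Ms4a3 was found in 69.7% of the cells, and in 0.209% of mesenchymal cells. The next were Cldn15 (5.46), Fcnb (5.42), Cebpe (5.04), 1700020L24Rik (4.98), Nkg7 (4.82), the elastase inhibitor Serpinb1a (4.75), Plac8 (4.75), the surface protein gene Ly6c2 (4.54), Mfsd13a (4.39), Clec5a (4.37), Spn (4.19) and Clec12a (4.13), all log2 ratios. Across the 96 cells without other lineages, the share of UMIs over the rule's genes varied with that of Ms4a3 (Spearman 0.78), Nkg7 (0.74), Srgn (0.74) and Prss57 (0.64). With every cell thinned to 2000 UMIs (90 cells) these were 0.68, 0.66, 0.62 and 0.39. These coefficients are descriptions of cells that share a library and depth.

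Against the 458 specific-granule neutrophils, 2619 of 9056 genes with at least 20 UMIs were 2-fold or more higher in azurophil granule cells (28.9%) and 946 were 2-fold or more lower (10.4%). The median gene stood at a log2 ratio of 0.33. Scaling moved this balance, with 1834 genes higher and 1593 lower under edgeR's TMM factors, which moved the median by -0.36, and 1881 and 1525 under DESeq2's size factors, which moved it by -0.33. S100a8 and S100a9 lay at 94737 and 193501 CPM in the neutrophils, against 27029 and 41673 CPM in azurophil granule cells.

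Ribosome biogenesis genes were nearly all higher than in specific-granule neutrophils. Of 24 measured, 23 were 2-fold or more higher and none lower, with a median log2 ratio of 2.63, and 22 were higher under either other scaling. Without cells carrying other-lineage transcripts, 23 of 23 measured were higher, with a median of 3.72. Npm1 (nucleophosmin) had 2391 and 224 UMIs in the 2 libraries' cells and a log2 ratio of 3.12, Ncl (nucleolin) 2.56 and Nhp2 3.38. Of 32 genes of folding and translocation in the endoplasmic reticulum, through which granule proteins pass, 23 were higher and none lower (median 1.22, and 14 higher under either other scaling). Sec61b, a subunit of the translocon, was at 1.39. Monocyte genes were higher in 11 of 19 cases and lower in none (median 1.37), with Ccr2 at 3.83 and Ms4a6c at 4.23. Of all genes, 28.9% were 2-fold or more higher in this comparison. Against monocytes, 2 of the 32 endoplasmic reticulum genes were higher and none lower (median 0.29), near the 8.61% of all genes. Together these 32 genes took 1.08% of UMIs in azurophil granule cells and 1.16% in mesenchymal cells.

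Azurophil and promyelocyte genes beyond the rule were higher in 9 of 22 cases and lower in 3, with a median log2 ratio of 0.87 (8 higher and a median of 0.52 with TMM factors), beside 28.9% and 10.4% of all genes. Ms4a3 was at 3.77 (3.48 to 4.08), Plac8 at 3.16 and Nkg7 at 4.08 (3.58 to 4.62). Cst7 had 0 UMIs in the 458 neutrophils. A floor of 3 UMIs over the group puts it 48.0-fold higher, and the exact lower limit was a log2 ratio of 5.26. Lyz2 (lysozyme), which is made through both stages and in monocytes, was lower by a log2 ratio of -1.87. The largest ratios among genes found in at least 25% of either kind of cell were those of Gm56577 (6.28), Cst7, Ass1 (argininosuccinate synthase, 5.47), the chromatin protein gene Hmga1 (5.07), Rpf2 (4.65), Atic (4.60), Ly86 (4.44), F13a1 (4.42), Cd48 (4.33) and Ppan (4.31). Rpf2 and Ppan act in ribosome assembly and Atic in purine synthesis.

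Genes of the later granules were lower. The neutrophils were chosen on Camp, Ngp, Ltf and Lcn2, so that these 4 are lower by the choice. Of 18 specific granule genes 14 were 2-fold or more lower and none higher (median -2.09), with Camp at -2.13, Ngp at -2.52 and Lcn2 (lipocalin 2) at -2.40. Of 21 gelatinase granule and mature neutrophil genes 17 were lower and none higher (median -1.90). Among genes found in at least 25% of either kind of cell, the lowest ratios were those of Mmp9 (gelatinase B, -5.80), the surface marker gene Ly6g (-5.15), Ceacam10 (-4.84), Asprv1 (-4.82), Mmp8 (collagenase, -4.78), Slfn1 (-4.57), the formyl peptide receptor gene Fpr1 (-4.52), Stfa3 (-4.51), Retnlg (-4.48) and Slfn4 (-4.29). Mmp9 had 9 UMIs in Lipo-Clo azurophil granule cells and 0 in Lipo-PBS ones, against 571 in specific-granule neutrophils. Retnlg had 451 and 0, against 11513. The NADPH oxidase genes, whose products make superoxide, differed less, with 2 of 7 lower and none higher (median -0.59).

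Against the 146 monocytes, 699 of 8116 genes were 2-fold or more higher (8.61%) and 1213 lower (14.9%), with a median log2 ratio of -0.16. TMM factors gave 909 higher and 931 lower and DESeq2's size factors 921 and 919, moving the median by 0.16 and 0.17. Doubling the limits that define monocytes turned the balance, with 952 genes higher and 773 lower. Specific granule genes were higher in 9 of 15 cases and lower in 2 (median 1.76), and azurophil and promyelocyte genes higher in 10 of 22 and lower in 5 (median 0.81). The specific granule genes together took 5.66% of UMIs in the specific granule subset and 2.02% in cells with other-lineage transcripts. They took 0.291% in azurophil-high and 0.260% in azurophil-low cells, below the 0.354% of monocytes. Leading genes were the cystatin A family member Stfa1 (log2 ratio 8.19, 4678 and 147 UMIs in the 2 libraries' cells), Ms4a3 (7.97), Cstdc5 (7.57), Camp (7.37), S100a9 (7.10), Ngp (6.95), Cstdc4 (6.85), Cebpe (5.37) and Fcnb (5.10). Prss57, a serine protease of neutrophil granules, had 197 UMIs in the azurophil granule cells and 0 in monocytes. A floor of 3 UMIs puts it 27.7-fold higher, and the exact lower limit was a log2 ratio of 4.48. Stfa1, Cstdc5, Cstdc4 and Stfa3 belong to a family of close copies, between which reads can be split.

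Antigen presentation genes stood lowest against monocytes. The monocyte group had no limit on dendritic cell genes, and the part of dendritic cells in these ratios was not tested. H2-Eb1 had 11 and 1 UMIs in azurophil granule cells and 1793 in monocytes (log2 ratio -8.47), H2-Aa 4 and 4 against 943 (-8.12), Cd74 32 and 8 against 4221 (-7.96) and H2-Ab1 14 and 1 against 899 (-7.15). All 5 measured genes of the dendritic cell list, which holds these 4, were lower. Cd209a had 0 UMIs against 123, at least 97.1-fold lower by the floor. H2-DMb1 (-5.10), Ccl6 (-5.05), Ifi27l2a (-4.92), Clec4a3 (-4.71) and Sirpb1c (-4.68) followed. Of 20 monocyte genes, 5 of which defined the monocytes and are lower in part by that choice, 18 were lower and none higher (median -2.32), but Ly6c2, with 922 and 121 UMIs, was at 641 against 573 CPM, a log2 ratio of 0.16 (-0.01 to 0.33).

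**Figure D4:**
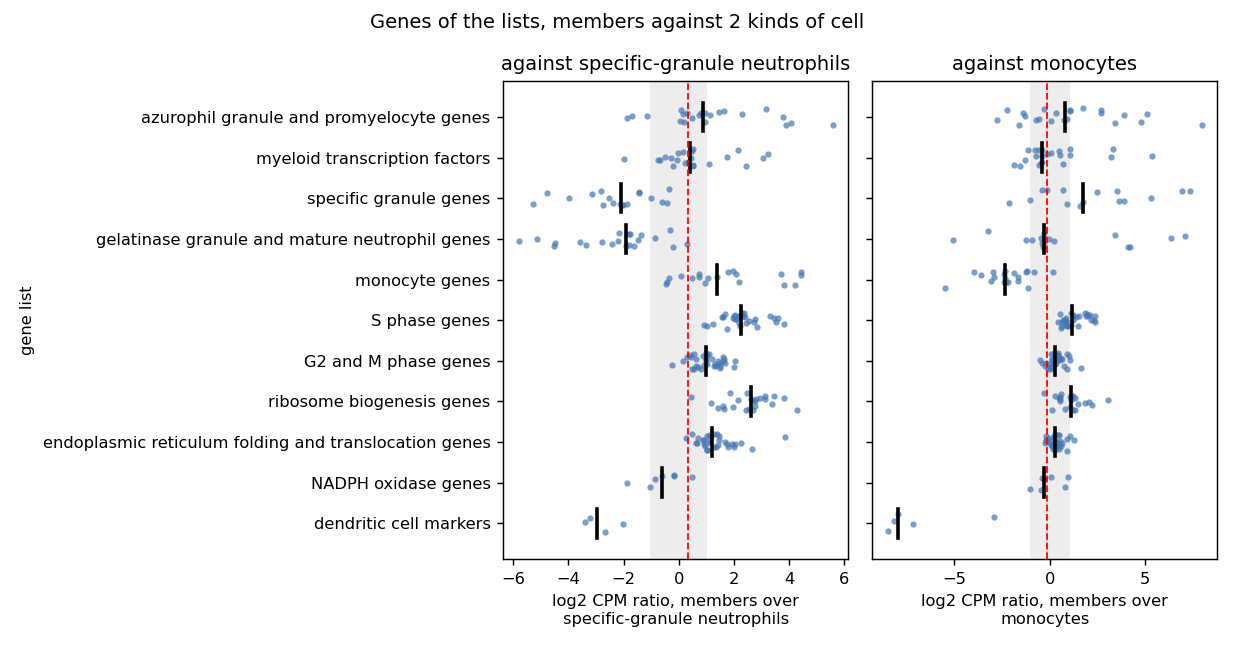
Each point is 1 gene of a list, placed by its log2 CPM ratio of azurophil granule cells (members) over specific-granule neutrophils (left) or monocytes (right). Black bars are list medians, the red dashed line is the median of all genes measured and the grey band is less than 2-fold. The ribosome biogenesis median is 2.63 on the left and 1.10 on the right, and that of the dendritic cell markers -7.96 on the right.

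Transcription factors of the myeloid lineage lay on both sides of the reference cells. Of 22 measured, 6 were higher and 1 lower than in specific-granule neutrophils (median 0.40, and 0.05 with TMM factors), and 5 higher and 4 lower than in monocytes (median -0.41), beside 28.9% and 10.4% of all genes against the neutrophils and 8.61% and 14.9% against monocytes. Spi1 was found in 70.4% of the azurophil granule cells (283 and 26 UMIs) at 0.17 and -0.12, and Cebpb in 95.1% at 0.52 and -0.75, all log2 ratios. Cebpa, which is required to form granulocyte-monocyte progenitors, was found in 19.7% of the cells against 2.40% of specific-granule neutrophils, at 21.5 against 6.46 CPM. Receptor genes were near the neutrophil level, with 2 of 18 higher and 2 lower (median -0.03), and below that of monocytes, with 6 of 17 lower and none higher (median -0.86).

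Cell cycle transcripts summed over the lists took a larger share of UMIs than in any of the reference cells. The 30 S phase genes took 0.263% of UMIs in azurophil granule cells, against 0.0580% in specific-granule neutrophils, 0.106% in monocytes and 0.0609% in mesenchymal cells. Of the 30, 29 were 2-fold or more higher than in specific-granule neutrophils and 17 than in monocytes, and none was lower in either. Dut, which clears uracil from the nucleotide pool, had 932 and 85 UMIs and log2 ratios of 2.78 and 2.19. The 36 G2 and M phase genes took 0.509% of UMIs, against 0.281%, 0.392% and 0.0961%. Of 35 measured against neutrophils 19 were higher (10 with TMM factors), and of 34 measured against monocytes 3 were, a share near the 8.61% of all genes.

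At equal depth the difference in the 2 lists remained, but single genes gave less. With every cell thinned to 2000 UMIs, at least 3 UMIs of the G2 and M phase list were seen in 121 of 136 azurophil granule cells (89.0%, 82.5% to 93.7%), in 43.4% of 350 specific-granule neutrophils (38.2% to 48.8%), in 43.7% of 135 monocytes and in 12.3% of mesenchymal cells. Unthinned, the shares were 96.5%, 55.5%, 52.1% and 19.6%. Hmgb2 held the most UMIs of the G2 and M phase list in azurophil granule cells, 2762. Its log2 ratios were 0.47 over specific-granule neutrophils and 0.42 over monocytes, and the shares without it were not computed. Of the S phase list, at least 3 UMIs were seen in 74.3% of azurophil granule cells, 12.9% of specific-granule neutrophils and 20.7% of monocytes. Mki67, a marker of cycling cells, was found in 16.9% of thinned azurophil granule cells (11.03% to 24.3%), against 6.00% of specific-granule neutrophils and 13.3% of monocytes (8.10% to 20.3%), and Top2a, which untangles DNA, in 19.1%, 9.14% and 17.04%, so that for both genes the intervals of azurophil granule cells and monocytes overlapped. The S phase limit was passed by 19 of 20 azurophil-high cells and by 58.7% of the cells with other-lineage transcripts. In Lipo-Clo the G2 and M phase share was 93.6% (of 110 cells, 87.3% to 97.4%), and in Lipo-PBS 69.2% (of 26 cells, 48.2% to 85.7%). Of the 26 Lipo-PBS cells 19 carried other-lineage transcripts, and 12 of these passed, against 23 of 27 such cells in Lipo-Clo. The other Lipo-PBS subsets passed in 3 of 3 specific granule, 1 of 1 azurophil-high and 2 of 3 azurophil-low cells. Thinned cells held a median of 926.5 genes, against 609.5 in specific-granule neutrophils and 957 in monocytes.

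**Figure D5:**
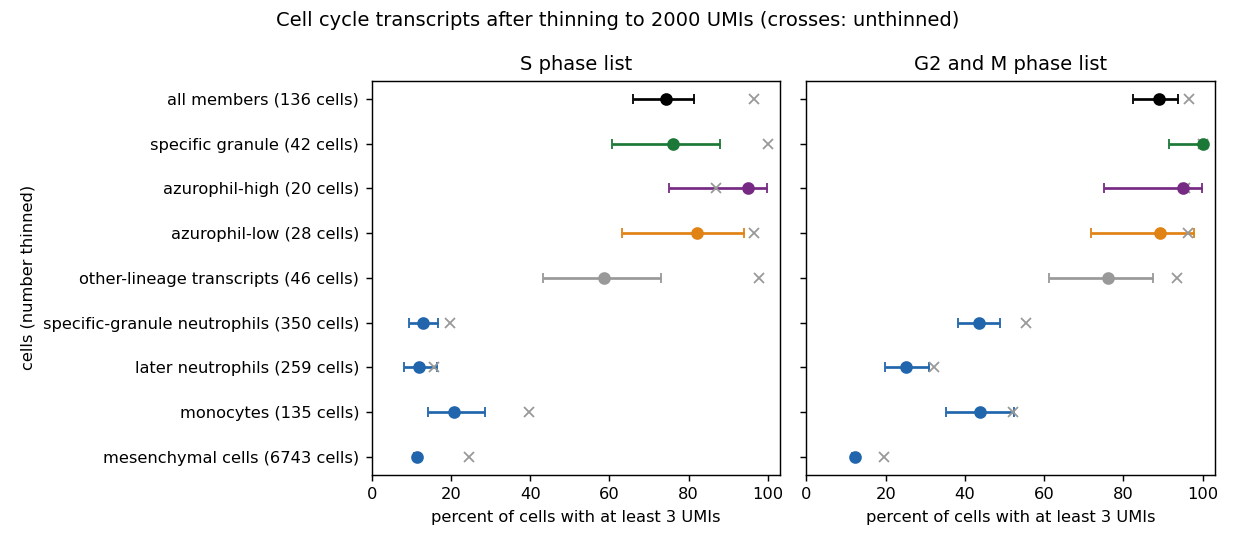
Points give the percent of cells with at least 3 UMIs of the S phase list (left) or the G2 and M phase list (right) after thinning to 2000 UMIs, with exact 95% intervals, and grey crosses give the unthinned percent. Azurophil granule cells (all members) stood at 74.3% and 89.0%, right of every kind of reference cell (12.9% and 43.4% in specific-granule neutrophils).

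Between the libraries, the azurophil granule cells without other lineages could be set side by side, but these were 88 cells against 8, and cell to cell variation is not covered by the intervals. The log2 ratios of Lipo-Clo over Lipo-PBS were -0.17 for Prtn3 (9257 and 10397 CPM), -0.62 for Elane (6683 and 10302 CPM), -0.52 for Mpo (1346 and 1931 CPM) and 0.47 for Ctsg (1620.2 and 1171 CPM). Of the 8 Lipo-PBS cells, 1 held 818 UMIs over these 4 genes and another 386, while the others held 13 to 98. The first of these cells therefore weighs heavily in the ratios of the 4 genes. Ratios without it were not computed, and the direction for Mpo, Elane and Prtn3 may rest on it. Nkg7 was at -1.28 and Lcn2 at 1.17, Ms4a3 at 863 and 759.6 CPM (0.18, -0.23 to 0.63) and Plac8 at 2027 and 1915 CPM (0.08, -0.18 to 0.36). Camp was at 12293 and 38422 CPM, but was found in 79.5% and 37.5% of the cells, so that 3 Lipo-PBS cells held it. Myb was at 37.0 and 174 CPM and Npm1 at 1883 and 807 CPM.

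Markers of other blood lineages were listed gene by gene, and their shares differed widely. Of the eosinophil genes, Prg2 and Epx had 0 UMIs, which allows up to 2.11% of cells with a UMI by a floor of 3 cells, but Siglecf was found in 3.52% of the cells, Ear2 in 4.93% and Prg3 in 2 cells. The mast cell proteases Tpsb2 and Cma1 had 0 UMIs. Of the platelet genes Ppbp had 0 and Pf4 9 UMIs, and of the B cell genes Ms4a1 had 0, Cd79a 11, Vpreb3 14 and Igll1 13 UMIs. Erythroid genes took 0.320% of UMIs in Lipo-Clo and 1.76% in Lipo-PBS, led by Hbb-bs (2899 and 2916 UMIs), against 2.27% in specific-granule neutrophils. Also of the B cell list, Ighm was found in 21.1% and Cd79b in 15.49% of the cells, against 3.77% and 2.70% of the shallower mesenchymal cells. The macrophage genes C1qa, C1qb and C1qc had 2, 6 and 8 UMIs in Lipo-Clo and 9, 5 and 13 in Lipo-PBS, and Mrc1 had none.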

How the data were processed

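The authors deposited raw UMI counts per gene and cell for each library, whose file headers name Cell Ranger 8.0.0. The submitters' processing notes list Cell Ranger 3.1.0, Seurat 3.1.1 and the builds GRCm39 and mm39. Counts were read with Python 3.11.15 (scipy 1.17.1), summed over cells and scaled to CPM, and genes with at least 20 UMIs over both kinds of cell were compared. With 1 library per condition nothing was tested between conditions, and intervals are exact (Clopper-Pearson, or conditional for ratios). Doublets were scored with Scrublet in Scanpy 1.11.5. Its automatic threshold called 0 and 1 cells, so the highest 632 and 633 scores were marked and the cells kept. Named genes were the 15 with the highest ratio over all other cells, the 10 highest and 10 lowest against each reference (a UMI in at least 25% of cells of either kind), the 4 most abundant of each list and a fixed set of lineage genes. Members and lists were chosen with earlier results of these data known, and the limits for other-lineage transcripts and the motifs after seeing them. Scaling alternatives used edgeR 4.0.16 and DESeq2 1.42.0 factors. The calculations were tested on simulated data.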

Additional observations from a re-analysis of the deposited data

How the results depend on the processing

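No paired analysis was possible because the study made 1 library for Lipo-Clo and 1 for Lipo-PBS. Of 112 alternative values 82 stayed close to the reported one and 30 moved. Counts and percentages cannot change sign. The log2 ratio of the shares could, and it stayed above zero in each setting. A limit of 5 UMIs over the 4 genes gave shares of 1.61% (Lipo-Clo) and 0.450% (Lipo-PBS), and 20 UMIs gave 1.02% in Lipo-Clo. A limit of 1% of UMIs left 70 cells, 0.653% and 0.135%, with 430 genes higher than in monocytes. Thinning to 2000 UMIs gave 31.6% with specific granule transcripts and 89.0% with G2 and M phase transcripts. Unthinned, Lipo-Clo alone gave 99.1% for the latter. Genes lower than in specific-granule neutrophils numbered 1593 with TMM factors, 1525 with DESeq2's size factors and 423 among genes found in at least 10% of cells. Without a filter the higher and lower counts were 3949 and 1905 against neutrophils and 1221 and 3449 against monocytes. At 4-fold they were 785, 235, 153 and 238. At 1.5-fold, 1731 were lower than in neutrophils, and 1363 higher and 2353 lower than in monocytes. Doubled limits for monocytes gave 952 higher and 773 lower, which turned the balance of 699 and 1213. Chosen after seeing the data, leaving out cells with other-lineage transcripts gave 0.990%, 0.0899% and a log2 ratio of 3.46, and leaving out the 13 Lipo-PBS cells of the 2 sets gave 0.157% and 3.04. The cause of these changes was not tested beyond what each setting removes. The Lipo-PBS values rest on 27 cells at a median depth of 6952 UMIs.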
